A study of Mus musculus with 6 samples.

Results

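The genes described here are 10 markers by which mouse alveolar macrophages are usually recognised, namely Marco, Ear1, Ear2, Plet1, Krt79, Abcg1, Cidec, Pparg, Itgax and Atp6v0d2. They were chosen by symbol, and all 10 have a row among the 26890 genes of the deposited table. They were followed in lung cells of C57BL/6 mice of WT genotype that had received either C1q, the protein that starts the classical pathway of complement, or saline. C1q was given into the trachea at 20 µg per mouse, and lungs were taken at day 3 (n = 3 C1q libraries and n = 3 saline libraries). The labels give neither age nor sex, describe the instillation of C1q in the treatment text of every sample, and do not state that each library is a separate mouse. The saline group therefore rests on the treatment label, and p-values measure the spread between these libraries, which may be technical. The material was a mixture of lung cells from an enzyme digest, kept from the middle layer of a Percoll gradient, and not sorted macrophages.

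Alveolar macrophages live on the air side of the alveolus, where they clear surfactant lipid, particles and microbes. Their identity depends on granulocyte-macrophage colony-stimulating factor from the alveolar epithelium and on TGF-beta, which together maintain the nuclear receptor encoded by Pparg. This receptor drives genes for lipid storage and cholesterol export, among them Cidec and Abcg1. Marco and Itgax encode surface receptors, Ear1 and Ear2 encode secreted ribonucleases, Atp6v0d2 encodes a part of the proton pump that acidifies lysosomes, and Plet1 and Krt79 are markers whose work in this cell is less well known.

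Libraries held 2227619 to 3650793 counts in the C1q group and 2577429 to 2991562 in the saline group, and 3 counts corresponded to 0.83 to 1.35 CPM. CPM values were computed with library sizes scaled by TMM, which corrects them for composition. The 10 genes had 27 to 740 counts in each library, so that none was near that level. In bulk RNA from mixed cells, a smaller number of macrophages and less transcript in each macrophage cannot be told apart.

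Ear1 and Ear2 are near-identical copies on chromosome 14, which bears on how far their counts can be separated. The 250 bases before the annotated start of each are shown for that reason, from RefSeq on GRCm38.p6 and in the direction of transcription. Capitals mark the bases at which the aligned windows differ. The Ear1 window is chr14:43819640-43819889 on the minus strand, and the Ear2 window is chr14:44102404-44102653 on the plus strand. The Ear1 window lies inside the span that GENCODE M21 gives this gene (43818765 to 43875517), whose outermost start is further upstream.
Ear1: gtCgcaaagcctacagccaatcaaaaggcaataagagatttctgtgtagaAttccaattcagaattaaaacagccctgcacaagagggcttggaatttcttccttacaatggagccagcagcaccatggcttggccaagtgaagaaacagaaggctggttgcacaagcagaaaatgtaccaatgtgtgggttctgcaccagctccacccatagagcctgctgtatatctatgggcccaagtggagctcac
Ear2: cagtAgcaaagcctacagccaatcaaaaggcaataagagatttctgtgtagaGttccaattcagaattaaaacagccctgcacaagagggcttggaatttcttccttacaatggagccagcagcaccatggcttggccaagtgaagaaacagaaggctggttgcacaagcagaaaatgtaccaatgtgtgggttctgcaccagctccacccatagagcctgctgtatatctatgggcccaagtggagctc
Over the 248 bases that align, 246 are identical. The longest protein-coding transcripts of the pair, from GENCODE M21, are identical at 690 of 717 aligned bases, and at 95 of 98 in their first 100 bases, where a library of 5′ ends reads most. Of the 664 windows of 50 bases in the Ear1 transcript, 158 occur unchanged in the Ear2 transcript. The related gene Ear10 also shares sequence with both. Its transcript holds 112 of the 664 Ear1 windows unchanged, and 174 of the 670 Ear2 windows. The sources used here do not say how reads that match more than 1 of these genes were counted. The split between Ear1 and Ear2 is therefore uncertain, and their sum is given below as well.

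Of the alveolar macrophage genes, 0 of 10 passed the test over all genes after C1q. Plet1, Abcg1 and Atp6v0d2 were at a higher level in all 3 C1q libraries than in any saline library. Their fitted fold changes between the groups were 1.18 to 1.45, and the gaps between the nearest libraries were smaller. For the other 7 genes the groups overlapped, and fitted log2 fold changes ranged from -0.47 for Ear1 to 0.40 for Itgax. The median log2 fold change of the 10 was 0.15, against -0.01 over the 13473 genes tested, and it was 0.01 without saline replicate 3 and 0.31 without saline replicate 2.

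The test was edgeR's quasi-likelihood test with Benjamini-Hochberg adjustment over all genes tested, at a threshold of 0.05. By that rule 4 genes were called, 0.0297% of those tested, all of them higher. The smallest adjusted p among the 10 was 0.561, and 0 of 10 were also called by DESeq2 and by limma-voom. At an unadjusted p under 0.05, 2 of the 10 were higher (Plet1 and Atp6v0d2) and 0 lower, where 8.16% of all genes met that level in either direction and 4.22% with a higher mean. At that unadjusted level there were 0 in either direction without C1q replicate 1, 3 higher and 1 lower (Ear1) without C1q replicate 2, 3 higher and 0 lower without saline replicate 2, and 1 higher and 1 lower (Ear1) without saline replicate 3. Groups were separated with C1q above for 3 of the 10 genes and with C1q below for 0, against 8.12% and 5.96% of all genes tested. As the genes were chosen with results of these data known, nothing particular to them is read from these shares.

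**Figure D1:**
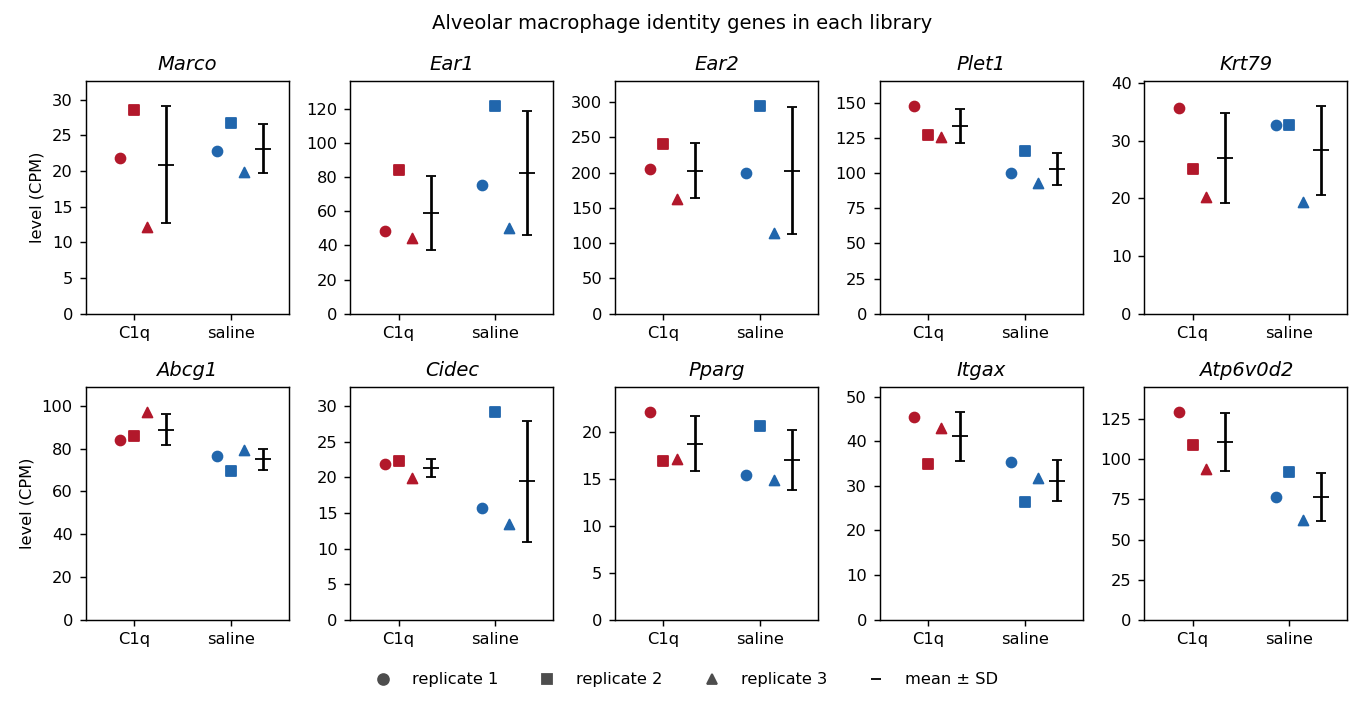
Level of each gene in CPM in the C1q libraries (red) and the saline libraries (blue), with 1 point per library and the mean ± SD beside them. Plet1, Abcg1 and Atp6v0d2 have all C1q points above all saline points, and Ear1, Ear2 and Cidec have a high saline replicate 2 and a low saline replicate 3.

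Marco is a scavenger receptor of the class A family that binds bacteria and inhaled particles, and lies on chromosome 1 from 120474538 to 120505024 (GENCODE M21 on GRCm38), with up to 17 exons. It stood at 21.8, 28.6 and 12.2 CPM in C1q replicates 1 to 3, against 22.8, 26.7 and 19.8 CPM in saline replicates 1 to 3. The groups overlapped, and C1q replicate 3 was the lowest library, with 27 counts. Its log2 fold change was -0.13 ± 0.28 (SE, adjusted p = 0.916), with a 95% interval from -0.75 to 0.49, and it was 0.13 without C1q replicate 3. Itgax, on chromosome 7 from 128129547 to 128150657 with up to 30 exons, encodes the integrin chain CD11c, which pairs with the beta chain from Itgb2. Its level was 45.4, 34.9 and 42.9 CPM in C1q libraries and 35.4, 26.3 and 31.7 CPM in saline libraries. Only saline replicate 1 reached into the range of the C1q libraries, above C1q replicate 2. The log2 fold change of Itgax was 0.40 ± 0.18 (adjusted p = 0.606, unadjusted p = 0.0522).

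Itgax is also carried by dendritic cells. Their markers ranged widely in level. Xcr1 had 6 to 15 counts in C1q libraries and 4 to 5 in saline libraries, while Zbtb46 was at 25.7 to 35.3 CPM in C1q libraries and 23.1 to 39.2 CPM in saline libraries. Ccr7, which other migrating leukocytes also carry, was at 45.6 to 70.2 CPM in C1q libraries and 44.9 to 59.8 CPM in saline libraries. The summed level of all 10 dendritic cell markers was 116.9 to 147.7 CPM in C1q libraries and 108.5 to 128.0 CPM in saline libraries. None of the 10 was at 0 throughout, and their part in the Itgax values was not tested. Itgb2 had log2 fold change 0.36 ± 0.16 and was at 118.2 to 138.3 CPM in C1q libraries, above the 82.9 to 108.7 CPM of saline libraries, without passing (adjusted p = 0.602). Itgam, the alpha chain carried by blood monocytes and neutrophils, had overlapping groups and a log2 fold change of 0.00 ± 0.21.

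Ear1 and Ear2 belong to the eosinophil-associated ribonucleases, secreted enzymes that mouse alveolar macrophages make in large amounts. Ear1 is annotated from 43818765 to 43875517 and Ear2 from 44102654 to 44103534 on chromosome 14, each with 2 exons. The span of Ear1 also holds the pseudogenes Ear-ps12, Ang-ps2 and Ear-ps9 and a lincRNA, and the lincRNA Gm49101 overlaps Ear2 on the other strand. Ear1 was at 48.7, 84.3 and 44.2 CPM in C1q libraries, against 75.2, 121.9 and 50.1 CPM in saline libraries. Ear2 was at 204.7, 240.2 and 162.5 CPM in C1q libraries, against 199.0, 294.3 and 114.3 CPM in saline libraries. Both genes were highest in saline replicate 2, and Ear2 was lowest in saline replicate 3, so that the saline libraries alone spanned 2.43-fold for Ear1 and 2.57-fold for Ear2. The log2 fold change of Ear1 was -0.47 ± 0.32 (adjusted p = 0.684), and it was -0.08 without saline replicate 2 and -0.82 without C1q replicate 2. It was lower at an unadjusted p under 0.05 in 3 of the 13 alternative fits, those without C1q replicate 2, without saline replicate 3 and with no filter on low counts. Ear2 was at 0.00 ± 0.29 (adjusted p = 0.999), with an interval from -0.63 to 0.64. The sum of both, which is less open to how shared reads were divided, was 261.5 ± 59.3 CPM in C1q libraries and 284.9 ± 126.2 CPM in saline libraries (SD, n = 3 each).

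Within the pair, Ear1 took a smaller part of the counts in every C1q library than in any saline library. Its share of Ear1 plus Ear2 counts was 19.2%, 26.0% and 21.4% in C1q replicates 1 to 3 and 27.4%, 29.3% and 30.5% in saline replicates 1 to 3. The means were 22.2% ± 3.45 in C1q libraries and 29.1% ± 1.52 in saline libraries (SD, n = 3 each), and an exact permutation test gave a two-sided p = 0.1, the smallest that 3 against 3 libraries allow. The comparison was chosen after the values had been seen. The Wilson 95% intervals of C1q replicate 2 (23.3% to 28.9%) and saline replicate 1 (24.5% to 30.5%) overlap, and such intervals cover counting error only. Ear10, a further copy, had a log2 fold change of -0.08 ± 0.23, and Ear6 had 2 to 8 counts in each library and was not tested.

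**Figure D2:**
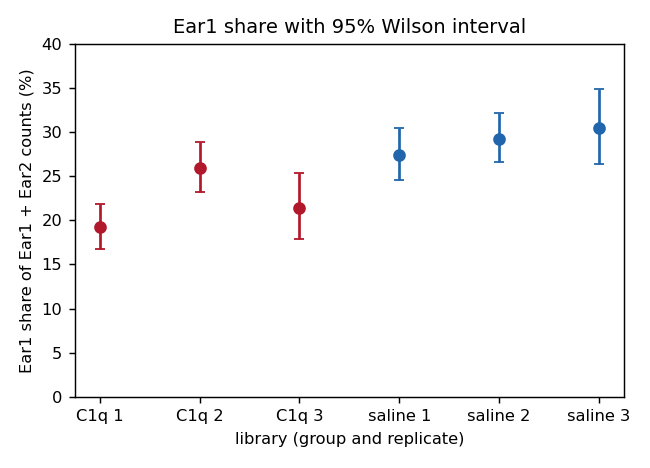
Share of Ear1 in the counts of Ear1 plus Ear2, in percent, for each library, C1q in red and saline in blue, with the Wilson 95% interval of the counts. The C1q libraries lie between 19.2% and 26.0% and the saline libraries between 27.4% and 30.5%.

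The Ear genes take their name from eosinophils, whose granule protein genes had few counts in these libraries. Epx, which encodes the granule peroxidase of that cell, had 1 count in saline replicate 2 and 0 in every other library. Prg2, for the granule major basic protein, had 1 to 10 counts in C1q libraries and 1 to 3 in saline libraries, and Ccr3, the eotaxin receptor, had 2 to 8 counts in C1q libraries and 1 to 5 in saline libraries. Alox15 had 8 to 23 counts in C1q libraries and 7 to 16 in saline libraries, and Il5ra 5 to 17 counts in C1q libraries and 8 to 13 in saline libraries. The summed level of the 6 eosinophil markers was 32.5 to 39.0 CPM in C1q libraries and 31.4 to 34.4 CPM in saline libraries, most of it from Siglecf, which alveolar macrophages share. Their part in the Ear values was not tested. Of the 3 markers tested, 0 passed. Alox15 was at a log2 fold change of 0.28 ± 0.46 and Il5ra at -0.17 ± 0.45 (0.15 without C1q replicate 2).

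Pparg itself, on chromosome 6 from 115360951 to 115490399, was at 22.1, 16.9 and 17.2 CPM in C1q libraries and 15.4, 20.6 and 14.9 CPM in saline libraries. The groups overlapped, and its log2 fold change was 0.15 ± 0.23 (adjusted p = 0.867), with an interval from -0.35 to 0.65. It was 0.0073 without C1q replicate 1 and 0.32 without saline replicate 2. An annotated antisense gene, Gm44079, overlaps it, and without a statement on strand in the sources used here, reads of the pair cannot be told apart. Cidec, also on chromosome 6, from 113424634 to 113435760, encodes a lipid droplet protein that lets droplets fuse. It was at 21.8, 22.2 and 19.9 CPM in C1q libraries, a narrow range, and at 15.8, 29.1 and 13.4 CPM in saline libraries, where replicate 2 was above every C1q library and replicates 1 and 3 were below. The log2 fold change was 0.15 ± 0.28 (adjusted p = 0.899), and it was -0.05 without saline replicate 3 and 0.55 without saline replicate 2.

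Abcg1, which exports cholesterol to high-density lipoprotein, spans 31057675 to 31117988 on chromosome 17, with up to 15 exons and the small rRNA gene Gm25447 within its span. Its level was 83.8, 85.7 and 97.1 CPM in C1q libraries and 76.5, 69.6 and 79.2 CPM in saline libraries. All C1q libraries were above all saline libraries, but the gap between the nearest pair was small, and the log2 fold change of 0.24 ± 0.14 did not pass (adjusted p = 0.661). Pparg and Cidec also mark fat cells. Of the adipocyte markers, Adipoq had 1 count in saline replicate 1 and 0 elsewhere, Plin1 and Lep had at most 2 counts in any library, and Plin4 had 3 to 17 counts in C1q libraries and 6 to 20 in saline libraries. The 7 adipocyte markers with a row summed to 20.5 to 34.9 CPM in C1q libraries and 26.4 to 29.1 CPM in saline libraries, with Lipe, a lipase of many cells and the only one tested, at a log2 fold change of 0.01 ± 0.22.

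Atp6v0d2 had the largest fitted change of the 10 genes. It encodes an isoform of the d subunit in the membrane sector of the vacuolar proton pump, found in osteoclasts and some macrophages, and lies on chromosome 4 from 19876841 to 19922605. Its level was 129.4, 109.0 and 93.9 CPM in C1q libraries, against 76.5, 91.9 and 62.0 CPM in saline libraries. C1q replicate 3 stood just above saline replicate 2. The log2 fold change was 0.53 ± 0.19, a fold of 1.45, with an unadjusted p = 0.0154 and an adjusted p = 0.561. It was 0.40 without saline replicate 3 and 0.69 without saline replicate 2. Of the counts of all 10 genes together, Atp6v0d2 made up 17.0%, 14.1% and 14.8% in C1q libraries and 11.8%, 11.1% and 12.5% in saline libraries, again without overlap. It was the only one of the 10 genes whose share of that sum did not overlap between groups, a comparison chosen after the values had been seen.

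The other subunits of the pump were measured beside it. Of 16 tested, 0 passed, 13 had a positive log2 fold change, and the median was 0.23. Over all genes, 6500 of the 13473 tested had a positive value. A like lean was seen in some other lists, with 7 of 10 identity genes, 18 of 23 other alveolar macrophage genes and 15 of 20 lipid handling genes positive. It was smaller in others, with 7 of 12 interstitial macrophage markers and 6 of 11 monocyte markers positive. At an unadjusted p under 0.05 there were 4 higher and 0 lower among the 16 pump subunits, where 4.22% of all genes tested were higher. The 2 with the smallest p-values were Atp6ap2, an accessory subunit, with 164.0 to 184.7 CPM in C1q libraries and 129.99 to 142.5 CPM in saline libraries, and Atp6v1a, the catalytic subunit, with 122.4 to 147.6 CPM in C1q libraries and 99.6 to 112.8 CPM in saline libraries. Their log2 fold changes were 0.34 ± 0.14 and 0.35 ± 0.14. Atp6v0d1, the widely expressed isoform of the d subunit, was at 0.16 ± 0.17 with overlapping groups.

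Plet1 encodes a surface glycoprotein held by a lipid anchor, on chromosome 9 from 50494525 to 50505482, and the antisense gene Plet1os overlaps it, so that the same limit holds. Its level was 147.7, 127.0 and 125.9 CPM in C1q libraries, against 100.3, 115.4 and 92.6 CPM in saline libraries. All C1q libraries were above all saline libraries, and the log2 fold change was 0.38 ± 0.15 (unadjusted p = 0.0299, adjusted p = 0.602), or 0.30 without C1q replicate 1. Krt79 encodes a type II keratin and lies on chromosome 15 from 101929332 to 101940324. It was at 35.7, 25.0 and 20.3 CPM in C1q libraries and 32.8, 32.8 and 19.4 CPM in saline libraries. The groups covered nearly the same range, the log2 fold change was -0.05 ± 0.26 (adjusted p = 0.969), and its sign turned in 4 of the 6 fits without 1 library.

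The window before the start of Plet1 is shown because its groups did not overlap and because it holds a TATA box. Capitals mark TATAAA and, on the other strand, the nuclear receptor element AGGTCA. The window is chr9:50494275-50494524 on the plus strand, from RefSeq on GRCm38.p6.
Plet1: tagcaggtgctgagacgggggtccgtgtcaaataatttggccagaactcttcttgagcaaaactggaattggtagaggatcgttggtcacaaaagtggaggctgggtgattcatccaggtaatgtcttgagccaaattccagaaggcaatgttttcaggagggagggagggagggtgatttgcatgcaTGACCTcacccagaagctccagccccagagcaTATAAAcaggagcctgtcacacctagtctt
Windows of 250 bases before a start were found for 8 of the 10 genes, 11 windows in all since Pparg and Cidec have several starts. Abcg1 and Atp6v0d2, whose groups did not overlap either, had no window. Both strands were searched. TATAAA occurred in 2 of the 11 windows (Plet1 and Pparg), and in 12.3% of all 32536 windows. The element AGGTCA occurred in 3 of the 11 (Plet1 and Pparg), against 14% of all windows. GAGGAA, a short core of sites for the myeloid factor PU.1, occurred in 2 of the 11 (Marco and Pparg), against 23.4%. The longer PU.1 letters GAGGAAGT occurred in 0 of the 11 windows and 2.45% of all. The direct repeat of AGGTCA with 1 base between, the type of site that PPAR receptors bind, occurred in 0 of the 11 and 0.0338% of all. These are matches of letters in a window and say nothing of binding. The short PU.1 core lies within the longer letters, and AGGTCA within the repeat.

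**Figure D3:**
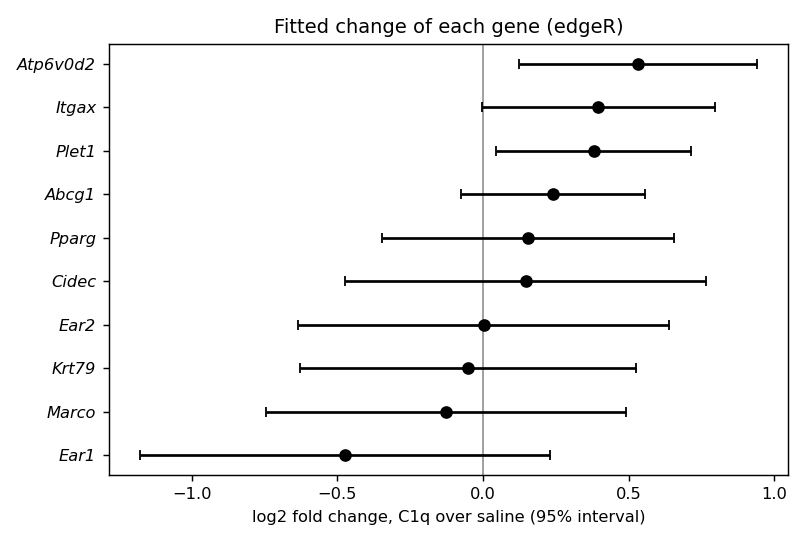
Log2 fold change of each gene, C1q over saline, with its 95% interval from the edgeR fit; the vertical line marks no change. The intervals of Atp6v0d2 and Plet1 lie above 0 before adjustment for the number of genes, and the other 8 include 0.

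Library by library, the 10 genes fell into partly opposed patterns. Pearson correlations of log2 CPM over the 6 libraries were positive for 32 of the 45 pairs of genes and negative for 13, with a median of 0.47. Plet1 and Atp6v0d2 were closest (r = 0.98), followed by Ear2 and Cidec (r = 0.87). Ear1 ran against Itgax (r = -0.78) and Abcg1 (r = -0.73), and Itgax and Abcg1 ran together (r = 0.80). These are descriptions over 6 libraries in which both genes of a pair share depth, scaling and treatment.

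**Figure D4:**
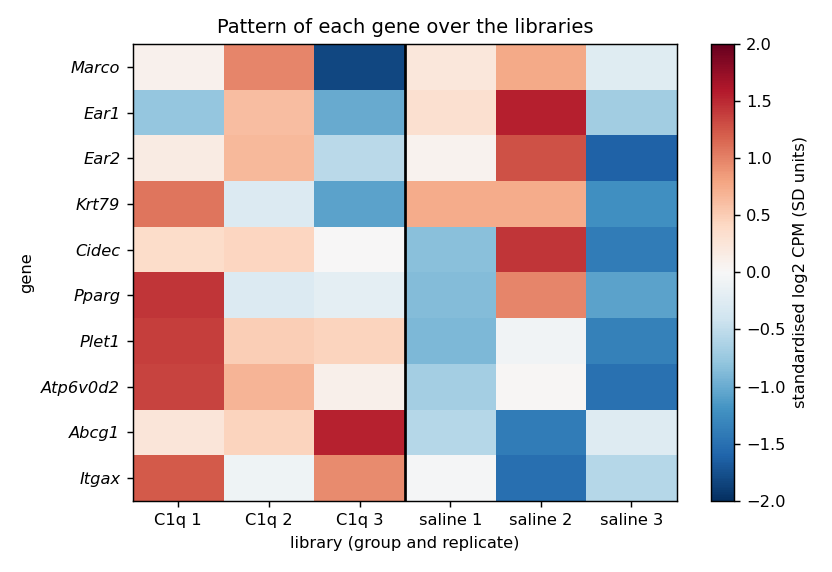
Log2 CPM of each gene in each library, standardised over the 6 libraries and shown in SD units (red high, blue low), with C1q libraries left of the black line. Ear1, Ear2 and Cidec are highest in saline replicate 2, while Plet1 and Atp6v0d2 are highest in C1q replicate 1 and Abcg1 and Itgax are low in saline replicate 2.

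Saline replicate 3 was the lowest of all libraries for 6 of the 10 genes, and saline replicate 2 was the highest for 3. As a library, saline replicate 3 also stood apart, with a count in 23259 genes, against 20520 to 21749 in the other libraries. Genes that passed the filter held 98.2% of its counts, against 99.0% to 99.25% elsewhere. The bearing of these traits on its levels was not tested. The coefficient of variation was larger in saline than in C1q libraries for 7 genes, most of all for Cidec, at 5.95% in C1q libraries and 43.6% in saline libraries. Summed over the 10 genes, levels were 761.1, 773.9 and 636.0 CPM in C1q libraries and 649.7, 828.7 and 497.5 CPM in saline libraries. The summed markers of alveolar type 2 cells, the surfactant-making epithelium, had the same order in the saline group. Their sum was 34267 to 36797 CPM in C1q libraries, and 32935, 47348 and 25108 CPM in saline replicates 1 to 3. Most of it was Sftpc, at 21771, 32862 and 15953 CPM in saline replicates 1 to 3. Among the 10 markers, Abca3 and Slc34a2 departed from that order and were lowest in saline replicate 1. The part of type 2 cells in the spread of the macrophage genes was not tested. Of those 10 type 2 cell markers 0 passed, 7 had a positive log2 fold change, and the median was 0.20. The 2 with the smallest p-values were Sftpd at a log2 fold change of 0.44 ± 0.18 and Napsa at 0.36 ± 0.19 (0.19 without saline replicate 3). Sftpc was at -0.06 ± 0.26, Etv5 at -0.02 ± 0.14 and Lyz1 at -0.27 ± 0.21.

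The non-member genes whose pattern was most like the mean standardised profile of the 10 were Slc25a5 (r = 0.997), Parp3 (0.995), Serpinb6a (0.994), Acat1 (0.994) and Sumo3 (0.992), over the 6 libraries and among genes with a mean of at least 20 CPM. These were picked as the highest values of all such genes. The 10 genes followed that profile unevenly. Their r with it was -0.02 for Abcg1, 0.21 for Itgax, 0.36 for Ear1 and 0.39 for Marco, and 0.70 to 0.93 for the others. For Slc25a5, levels were 449.7, 422.2 and 352.1 CPM in C1q libraries and 336.3, 406.0 and 264.4 CPM in saline libraries. All 5 had overlapping groups and log2 fold changes between 0.11 and 0.28, which were between 0.03 and 0.14 without saline replicate 3.

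Other genes of alveolar macrophages were detected in both groups, with 23 of 24 passing the filter on low counts. Siglecf, a sialic acid receptor, was at 19.0 to 25.7 CPM in C1q libraries and 17.9 to 26.3 CPM in saline libraries. Car4, shared with capillary cells, also had overlapping groups, as did Fabp1, Fabp4 and Fabp5. The log2 fold changes of these 3 Fabp genes were -0.38 ± 0.52, -0.42 ± 0.29 and -0.43 ± 0.35, while 18 of the 23 genes tested had a positive value. Chil3, a secreted chitinase-like lectin, was at 2575, 2783 and 2317 CPM in C1q libraries and 1328, 2030 and 748.9 CPM in saline libraries, where all C1q libraries were above. Of the 23 tested, 0 passed the test, and the median log2 fold change was 0.20. At an unadjusted p under 0.05, 5 were higher and 0 lower, against 4.22% of all genes tested higher. Those with the smallest p-values were the potassium channel gene Kcnn3 at 0.75 ± 0.22 (adjusted p = 0.501) and the arginine transporter gene Slc7a2 at 0.49 ± 0.16 (adjusted p = 0.532).

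**Figure D5:**
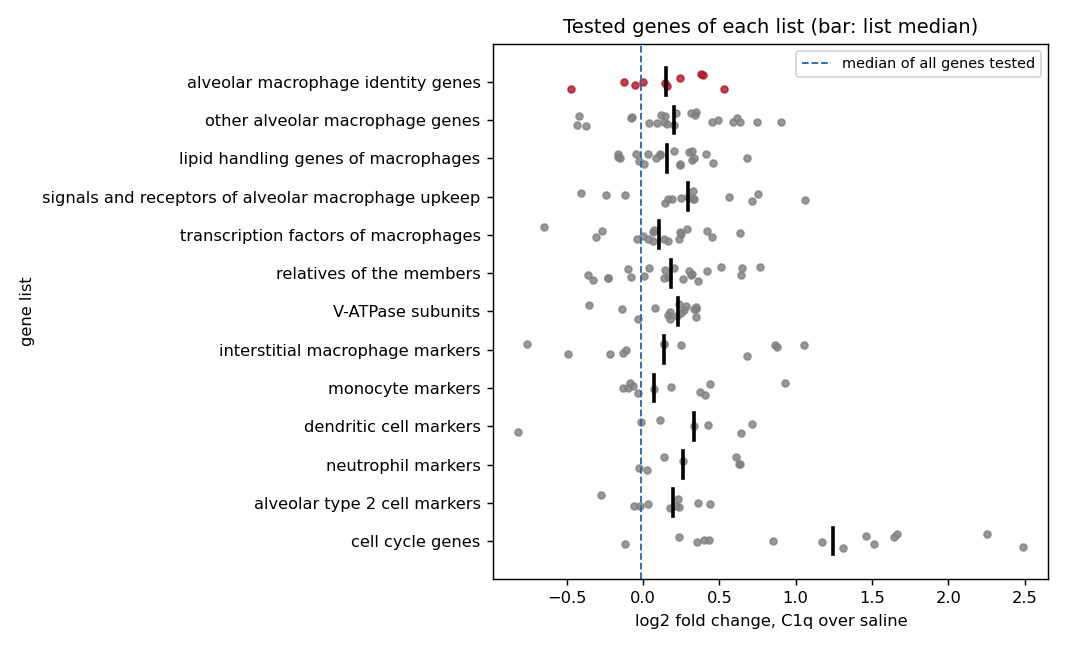
Log2 fold change, C1q over saline, of every tested gene in 13 lists (points) with the list median (black bar) and the median of all genes tested (dashed line). The identity genes (red) have a median of 0.15, and the cell cycle genes reach furthest, with a median of 1.24.

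Signals that maintain alveolar macrophages had a median log2 fold change of 0.30 over 15 tested genes, with 0 passing. There were 3 higher and 0 lower at an unadjusted p under 0.05, against 4.22% of all genes tested higher. Csf2rb, the common beta chain of the receptor for granulocyte-macrophage colony-stimulating factor, was at 70.5, 59.3 and 72.2 CPM in C1q libraries, against 40.2, 38.1 and 41.5 CPM in saline libraries. The groups were well apart, and the log2 fold change was 0.75 ± 0.15 (adjusted p = 0.245). Itgb6, an integrin chain of epithelium that activates TGF-beta, was at 41.2, 29.3 and 49.7 CPM in C1q libraries and 26.0, 22.7 and 23.9 CPM in saline libraries (log2 fold change 0.72 ± 0.21, adjusted p = 0.501). Csf2, the growth factor itself, had 1 to 9 counts in each library and was not tested.

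Genes of lipid handling had a median log2 fold change of 0.16, with 0 of 20 passing. There were 3 higher and 0 lower at an unadjusted p under 0.05, against 4.22% of all genes tested higher. Angptl4, an inhibitor of lipoprotein lipase and a known target of PPAR receptors, was at 38.7, 39.5 and 37.5 CPM in C1q libraries and 18.0, 28.3 and 26.1 CPM in saline libraries (log2 fold change 0.68 ± 0.20, adjusted p = 0.484). Plin2, which coats lipid droplets, was at 175.9, 199.99 and 169.3 CPM in C1q libraries and 136.3, 144.9 and 128.5 CPM in saline libraries (0.41 ± 0.14, adjusted p = 0.563). For both genes the groups did not overlap. Among 18 transcription factors of macrophages 0 passed, with a median of 0.10. At an unadjusted p under 0.05, 0 were higher and 1 lower, where 8.16% of all genes tested met that level in either direction. Bach2, a repressor in lymphocytes and macrophages, was at -0.65 ± 0.27, with 51.2, 37.0 and 57.8 CPM in C1q libraries and 64.6, 52.2 and 111.3 CPM in saline libraries. Saline replicate 3 stood far above the others, and without it the value was -0.27. Spi1, which encodes PU.1, was at 0.42 ± 0.20, and 0.24 without C1q replicate 1; both genes had overlapping groups. Relatives of the 10 genes had a median of 0.18 with 0 of 22 passing, led by the scavenger receptor Scara5 at 0.77 ± 0.26 (adjusted p = 0.555) and by Itgb2.

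Other myeloid cells in the digest were followed by their markers, and 0 of the tested markers of any passed. For interstitial macrophages, C1qa was at 52.3, 45.1 and 42.0 CPM in C1q libraries and 28.0, 22.3 and 16.8 CPM in saline libraries (log2 fold change 1.05 ± 0.21, adjusted p = 0.231), and C1qc was at 0.87 ± 0.25. Other markers of that cell went the other way, with Cx3cr1 at -0.49 ± 0.27 and Pf4 at -0.76 ± 0.36. Of the 12 tested, 5 had all C1q libraries above all saline libraries and 2 (Cx3cr1 and Pf4) had them all below. Over all genes tested, those shares were 8.12% and 5.96%. Over the 12 tested the median was 0.14, with 3 higher and 0 lower at an unadjusted p under 0.05, against 4.22% of all genes higher. The list summed to 2398 to 3479 CPM in C1q libraries and 2641 to 3979 CPM in saline libraries. Most of that sum was Cbr2, at 1936 to 2951 CPM in C1q libraries and 2237 to 3396 CPM in saline libraries, a gene that airway secretory cells also express. Monocyte markers summed to 1984 to 2021 CPM in C1q libraries and 2083 to 2152 CPM in saline libraries. Most of that sum was Nr4a1, an early response gene of many cells, at 1200 to 1286 CPM in C1q libraries and 1270 to 1420 CPM in saline libraries, and Ace, which endothelium shares. Over the 11 monocyte markers tested the median was 0.07, with Vcan at 0.93 ± 0.40 (0.55 without C1q replicate 1) and Ccr2 at 0.41 ± 0.26 (0.72 without saline replicate 1, 0.23 without saline replicate 2). Among neutrophil markers, Ly6g had 1 count in C1q replicate 2 and 0 elsewhere, and the list summed to 84.0 to 143.3 CPM in C1q libraries and 76.2 to 112.1 CPM in saline libraries. S100a8 had 10 to 86 counts in C1q libraries and 30 to 54 in saline libraries. Of the 7 neutrophil markers tested, 6 had a positive value, with a median of 0.26. S100a8 was at 0.14 ± 0.47, S100a9 at 0.26 ± 0.31, Cxcr2 at 0.03 ± 0.50 and Csf3r at -0.02 ± 0.36. The 2 with the smallest p-values were Retnlg at 0.63 ± 0.29 and Ltf at 0.64 ± 0.38. Without saline replicate 3 they were 0.345 and 0.298, and without saline replicate 2 Retnlg was 0.97, and without saline replicate 1 Ltf was 1.3. For dendritic cells, Clec9a was at -0.82 ± 0.39 and Flt3 at 0.72 ± 0.38. The part of these cells in the values of the 10 genes was not tested.

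Cell cycle genes, which would be shared by any dividing cell in the digest, had the highest median among the lists, 1.24 over 14 tested. Of these 0 passed, and 10 were higher and 0 lower at an unadjusted p under 0.05, against 4.22% of all genes tested higher. Ccna2, a cyclin of DNA replication, was at 15.2, 7.05 and 18.5 CPM in C1q libraries and 1.61, 1.62 and 5.23 CPM in saline libraries (log2 fold change 2.25 ± 0.52, adjusted p = 0.317). Top2a was at 27.7, 8.47 and 22.6 CPM in C1q libraries and 5.79, 4.86 and 7.84 CPM in saline libraries (1.66 ± 0.42, adjusted p = 0.405). Both were lowest within their group in C1q replicate 2. Of the 10 identity genes, 2 were also lowest within the C1q group there (Itgax and Pparg), and 4 were highest. Plet1 and Atp6v0d2 were between the other C1q libraries. The part of dividing cells in the values of the 10 genes was not tested. Which cells carried the cell cycle transcripts cannot be told from bulk counts.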

How the data were processed

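RNA of digested lung cells was measured in 3 C1q and 3 saline libraries that read the 5′ ends of poly(A) transcripts. The authors deposited whole-number counts per gene symbol, which are not normalized. Of the tools, cutadapt 2.1.0 and Bowtie2 2.4.2 are listed, with GRCm38 as the build, per the submitters' processing notes. For the counter, its annotation, strand and molecular identifiers, the sources used here give nothing. Groups come from the treatment label. Replicates were numbered in order of deposition, and these numbers pair nothing. No library was a copy of another, since the 15 pairs all differed beyond sampling noise (chi-square per degree of freedom 4.74 to 14.6).

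Of 26890 genes, filterByExpr kept 13473, among them all 10 described. The test was the two-sided quasi-likelihood test of edgeR 4.0.16 with TMM scaling and a single term for treatment, and p-values were adjusted over the kept genes (Benjamini-Hochberg). A standard error is the size of the fold change (log2) over the square root of F, and 95% intervals used the moderated degrees of freedom. The common biological coefficient of variation was 19.5%. Correlations used log2 CPM with a prior count of 2. Positions come from GENCODE M21 (GRCm38), promoter windows from RefSeq (GRCm38.p6).

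The genes and lists were chosen with earlier results of these data known. Named were the 10 genes, in each list the called genes or else the 2 with the smallest p-value, the first 3 markers of other cell types where their level bears on a result, and the 5 genes most alike in pattern; other genes were chosen after their values were seen. Alternatives were other scalings, filters, DESeq2 1.42.0, limma-voom (limma 3.58.1) and leaving out each library.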

Additional observations from a re-analysis of the deposited data

How the results depend on the processing

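The count of alveolar macrophage identity genes called was 0 in the main fit and in all 13 alternatives (RLE, upper-quartile and library-size scaling, no filter or a stricter filter on low counts, DESeq2, limma-voom and 6 fits without 1 library). The smallest adjusted p of any of the 10 genes in an alternative was 0.139, for Atp6v0d2 with no filter. Called over all genes were 4, and 373 with no filter, 36 with DESeq2 and from 0 to 10 with 1 library left out (1 when C1q replicate 1 was omitted, 2 for C1q replicate 2, 0 for saline replicate 1 and 10 for saline replicate 3). With no filter the calls included 1 other alveolar macrophage gene, 2 upkeep genes (Csf2rb and Itgb6), 3 interstitial macrophage markers, 1 monocyte marker and 7 cell cycle genes; DESeq2 called 1 interstitial macrophage marker (C1qa) and 1 cell cycle gene (Ccna2). The cause was not tested. The log2 fold change of Ear2 was -0.00629 with RLE, -0.00265 with upper-quartile, -0.0176 with library-size scaling and -0.00842 with the stricter filter, that of Lipe -0.0385 with library size, -0.00159 with the stricter filter and -0.0287 with limma-voom. Without 1 library, values ranged from -0.404 to 0.127 for Marco, -0.281 to 0.374 for Ear2, -0.316 to 0.11 for Krt79, -0.0513 to 0.55 for Cidec, -0.484 to 0.147 for Il5ra and -0.224 to 0.153 for Lipe. For Ear1, Plet1, Abcg1, Pparg, Itgax and Atp6v0d2 no alternative turned the sign. No paired analysis was possible because the sample titles are numbered through and the groups share no number.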
